A study of Mus musculus with 6 samples.

Results

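*Trafd1*, *Nmi*, *Ifi35*, *Ifi27*, *Ifi27l2a*, *Ifi44*, *Lgals9*, and *Lgals3bp* encode interferon-induced proteins with roles in signalling, and their transcripts were compared between hematopoietic stem cells (HSCs) with and without IRF1. The 8 genes were chosen by name for what the proteins do, with earlier results of these data known. All 8 were found among the 26264 genes of the deposited table. Bulk RNA-seq had been performed on HSCs of 3 wild-type (WT) and 3 *Irf1* KO mice. Its aim was to find transcript changes behind the altered function of HSCs that lack this transcription factor. The KO mice carried the whole-body targeted allele *Irf1 tm1Mak* (B6.129S2-Irf1 tm1Mak/J), and the WT controls were C57Bl/6. All 6 mice were 8-week-old females without any treatment, and each gave 1 library from sorted Lineage-Sca1+cKit+CD150+CD48- cells. Libraries are named here by genotype and by the replicate numbers 2, 3, and 4 of the labels.

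Interferons bind receptors on the cell surface and activate JAK kinases and STAT proteins, which switch on a broad set of interferon-stimulated genes. IRF1 is itself induced by interferon and binds the interferon-stimulated response element in the promoters of many of these genes. HSCs express a part of this set at steady state, and interferon can drive resting HSCs into division.

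Values are normalized counts, that is, reads per gene divided by 1 size factor per library. Reads on genes were 43138521, 57281017, and 45129929 in *Irf1* KO replicates 2, 3, and 4, and 59658080, 45332573, and 43267486 in the WT replicates of the same numbers. The 8 genes took between 48 reads (*Ifi27l2a*, WT replicate 3) and 41714 reads (*Lgals9*) in a library. No molecular identifiers were used, so amplified copies of 1 molecule were counted as separate reads.

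The transcript of the targeted gene *Irf1* stood at 9267, 9524, and 9287 normalized counts in *Irf1* KO replicates 2, 3, and 4, against 10122, 11120, and 12057.5 in WT. The 3 KO libraries lay below the 3 WT libraries, and the log2 fold change was −0.24 (adjusted *P* = 0.170, SE 0.088, limma), which was not called. Reads on this gene were thus still counted in the KO libraries. The deposited value is 1 total per gene and does not show which exons the reads came from, so it does not check the genotype labels.

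Of the 8 genes, 2 were called lower in *Irf1* KO HSCs, *Trafd1* and *Ifi27*, beside 0.954% of the 17404 genes tested that were called lower. Both are also in lists of lower genes that the study drew up on these samples, so their direction is not independent evidence. Calls needed both an adjusted *P* under 0.05 over all tested genes in limma and an absolute log2 fold change above 0.58. Fold changes are *Irf1* KO minus WT on the scale of log2(normalized count + 1), on which differences of sparsely counted genes come out too small. None of the 8 was called higher (0 in limma, edgeR, and DESeq2, and 0 at an unadjusted *P* under 0.05), beside 0.960% of the tested genes. With the adjusted *P* alone, *Nmi* was added, which made 3 of 8 lower beside 1.49% of the tested genes. For 5 of the 8 genes all *Irf1* KO libraries were below all WT libraries, as for 9.27% of the tested genes, and for 3 the genotypes overlapped. The median log2 fold change of the 8 genes was −0.32, against −0.0028 over all tested genes. Since earlier results were known when the genes were chosen, these comparisons with all tested genes are not independent evidence. In bulk samples of sorted cells, fewer cells of a type and less RNA per cell cannot be told apart.

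Without the intensity trend in limma's prior variance, 0 of the 8 genes were called and 33 of all genes were called lower. The call of *Trafd1* held in the other 15 fits run, whereas that of *Ifi27* was lost when certain single mice were left out, as given with its values.

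**Figure D1:**
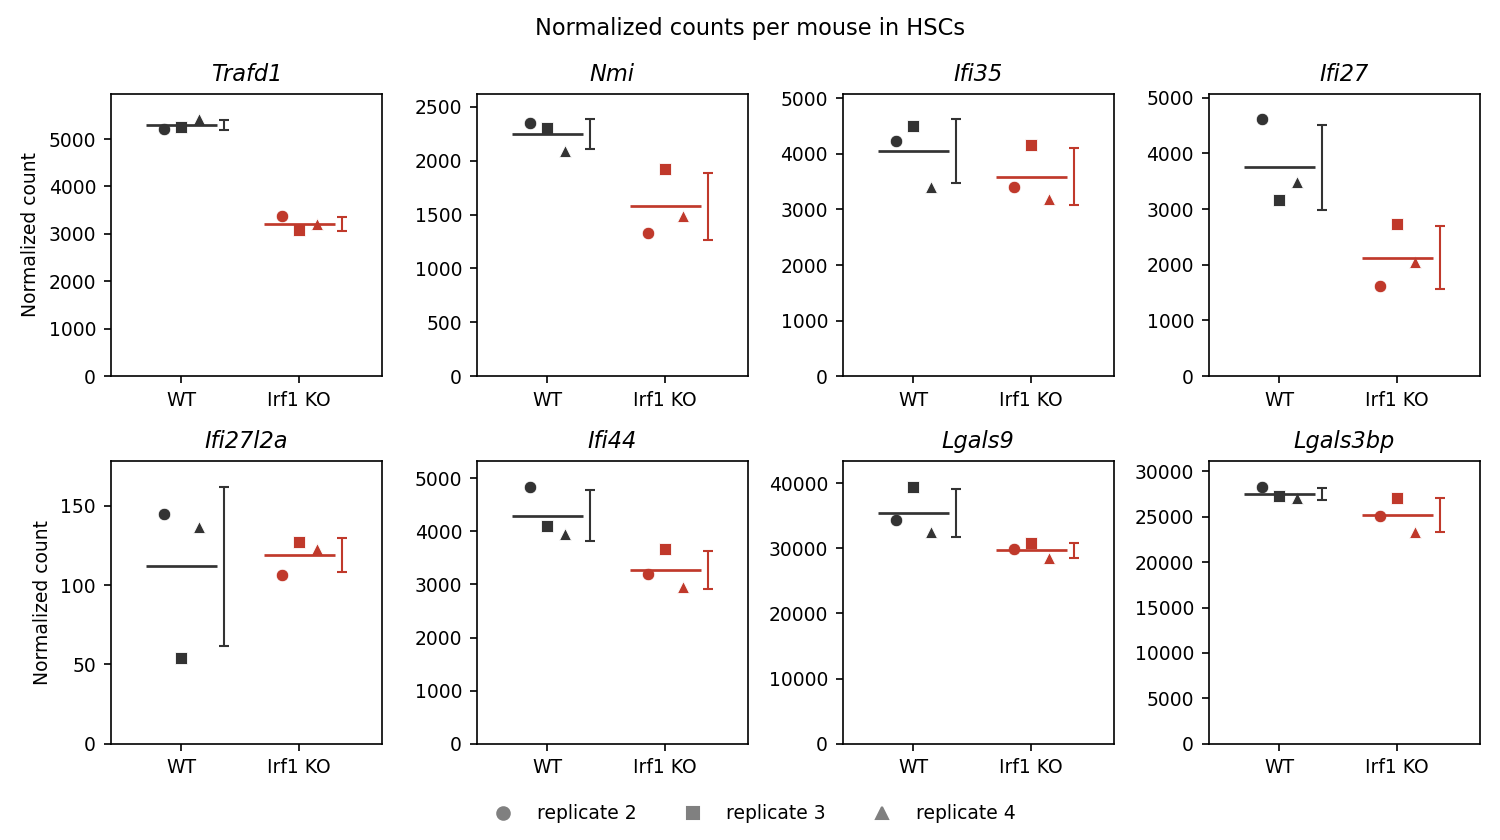
Normalized counts of the 8 genes in each of the 6 mice, on axes that start at 0, with symbols for the replicate number, a horizontal line at the mean of the 3 mice, and bars of 1 SD around it. *Trafd1* had the widest gap between genotypes relative to its WT level, with *Irf1* KO libraries between 3081 and 3374 and WT libraries between 5216 and 5418, and the genotypes overlapped for *Ifi35*, *Ifi27l2a*, and *Lgals3bp*.

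The first of the genes by role is the feedback regulator *Trafd1*, also known as FLN29, which encodes an interferon-inducible protein with a TRAF-type zinc finger that dampens signalling downstream of Toll-like receptors and cytosolic RNA sensors. It had 3374, 3081, and 3200.5 normalized counts in *Irf1* KO replicates 2, 3, and 4, and 5216, 5252, and 5418 in the corresponding WT replicates. The 6 values formed a pair of tight groups with a wide gap, the highest KO library being 35.3% below the lowest WT library. The mean fell to 60.8% of WT, from 5295 ± 107 to 3218 ± 148 (SD, *n* = 3 mice each), and the log2 fold change was −0.72 (95% interval −0.90 to −0.53, SE 0.086, limma adjusted *P* = 3.24e-04). By its unadjusted *P*, *Trafd1* ranked at place 49 among all tested genes, and by the size of the fall at place 124 among the 166 genes called lower. An exact permutation test (two-sided) on the 6 mice gave 0.1, which is the lowest *P* it can reach with 3 per genotype. In the 6 fits that each omitted 1 library, the log2 fold change lay between −0.75 and −0.69, with adjusted *P* of at most 0.00234 (limma). Without the intensity trend the adjusted *P* of *Trafd1* was 0.0608 (limma).

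*Nmi* and *Ifi35* encode partner proteins. NMI binds MYC-family and STAT proteins and strengthens STAT-dependent transcription, and IFI35 shares its binding domain, forms a complex with NMI, and can be released from cells as a danger signal. *Nmi* had 1325, 1922, and 1482 normalized counts in *Irf1* KO replicates 2, 3, and 4, against 2345, 2307, and 2090 in WT. All KO libraries were below all WT libraries, but KO replicate 3 came within 8.06% of the lowest WT library. The KO mean was 1576 ± 309 and the WT mean 2247 ± 138 (SD, *n* = 3 each). At a log2 fold change of −0.53 (95% interval −0.81 to −0.24, SE 0.13), *Nmi* passed the adjusted *P* (0.0455, limma) but not the threshold on the fold change. It met both when *Irf1* KO replicate 3 was left out (−0.68, adjusted *P* = 0.0111, limma), and over the fits without 1 library its log2 fold change lay between −0.68 and −0.41, with adjusted *P* of up to 0.185.

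*Ifi35* had 3406, 4163, and 3186 normalized counts in *Irf1* KO replicates 2, 3, and 4, and 4237, 4507, and 3403 in WT. The genotypes overlapped, since KO replicate 3 lay above WT replicate 4 and KO replicate 2 just above it. The log2 fold change of −0.17 had a 95% interval from −0.44 to 0.09 (adjusted *P* = 0.557, limma), so the interval of *Ifi35* lay within the fold threshold on both sides. Whether *Nmi* and *Ifi35* differed from each other in their response was not tested.

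*Ifi27* and *Ifi27l2a* belong to the ISG12 family of small hydrophobic proteins, which sit in mitochondrial and nuclear membranes and have been linked to apoptosis. *Ifi27* had 1616, 2726, and 2051 normalized counts in *Irf1* KO replicates 2, 3, and 4, against 4616, 3158, and 3484 in WT. Both genotypes were spread out, with the highest library 1.69 times the lowest in KO and 1.46 times in WT, and the gap between KO replicate 3 and WT replicate 3 was 13.7% of the latter. The mean fell from 3753 ± 765 to 2131 ± 559 (SD, *n* = 3 each), to 56.8% of WT, and the log2 fold change was −0.83 (95% interval −1.20 to −0.46, SE 0.17, limma adjusted *P* = 0.0177). *Ifi27* stood at place 104 among the 166 falls by size and at place 264 of all tested genes by its unadjusted *P*. The call was lost without KO replicate 2 (−0.65, adjusted *P* = 0.0857), without KO replicate 4 (−0.82, 0.0538), and without WT replicate 2 (−0.67, 0.0591, limma). Without KO replicate 4 the fold change thus stayed close to that of all 6 libraries, and 121 of all tested genes were called lower, against 166. The call was kept without KO replicate 3 (−1.02), WT replicate 3 (−0.94), and WT replicate 4 (−0.87). Without the intensity trend the adjusted *P* of *Ifi27* was 0.314 (limma), whereas edgeR and DESeq2 on the recovered reads both called it (−0.82 in each).

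Its relative *Ifi27l2a* had 107, 127, and 122 normalized counts in *Irf1* KO replicates 2, 3, and 4, and 145, 54.1, and 137 in WT. WT replicate 3 was below all other libraries, and the other 5 lay between 107 and 145. Its log2 fold change was 0.21 with a wide 95% interval (−0.59 to 1.01, adjusted *P* = 0.862, limma), and the sign turned without WT replicate 3 (−0.25, adjusted *P* = 0.835). *Ifi27* and *Ifi27l2a* were the only pair among the 8 genes whose spans overlap in RefSeq (GRCm38.p6). The strand setting and the handling of overlapping genes are not given in the sources used here, so reads of these genes may not be fully told apart, and their values are uncertain to that extent. *Trafd1* overlaps a noncoding gene, *Gm42020*, whose mean was 0.14 normalized counts. A further relative, *Ifi27l2b*, had between 13.5 and 32.0 normalized counts in the 6 libraries and was not called (log2 fold change 0.39, adjusted *P* = 0.819, limma).

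*Ifi44* encodes a cytoplasmic protein that is strongly induced by type I interferon and can restrain cell proliferation. It had 3196, 3661, and 2950 normalized counts in *Irf1* KO replicates 2, 3, and 4, against 4841, 4094, and 3945 in WT. All KO libraries were again below all WT libraries, with KO replicate 3 the nearest, 7.19% below WT replicate 4. The means were 3269 ± 361 and 4293 ± 480 (SD, *n* = 3 each), and the log2 fold change of −0.39 (SE 0.11, 95% interval −0.63 to −0.16) missed the adjusted *P* (0.0715, limma) as well as the fold threshold. In fits that left out 1 library the adjusted *P* of *Ifi44* ranged from 0.0389 to 0.303 (limma). It was 0.0144 in DESeq2, 0.0674 in edgeR, 0.0369 with the replicate block, and 0.347 without the intensity trend (both limma). *Ifi44* was called in no fit run, and its fold change stayed under the threshold in all of them. Its closest relative *Ifi44l* was under the filter on low values, with at most 14 reads in a WT library and at most 3 in a KO library.

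*Lgals9* encodes galectin-9, a lectin with a pair of carbohydrate-binding domains that is a ligand of the receptor TIM-3. It had 29839, 30806, and 28523 normalized counts in *Irf1* KO replicates 2, 3, and 4, and 34327, 39451, and 32428 in WT. The genotypes did not overlap, but the gap of 5.0% of the lowest WT library was narrower than the spread within WT. The log2 fold change was −0.25 (95% interval −0.45 to −0.04, adjusted *P* = 0.194, limma), and *Lgals9* was not called in any fit run. *Lgals3bp* encodes a secreted, heavily glycosylated protein that binds galectin-3 and integrins. It had 25088, 27072, and 23372 normalized counts in *Irf1* KO replicates 2, 3, and 4, and 28308, 27258, and 27056 in WT, so that only KO replicate 3 reached into the WT range, just above WT replicate 4. Its log2 fold change was −0.13 (95% interval −0.32 to 0.06, adjusted *P* = 0.521, limma), an interval that leaves out a fall past the fold threshold.

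**Figure D2:**
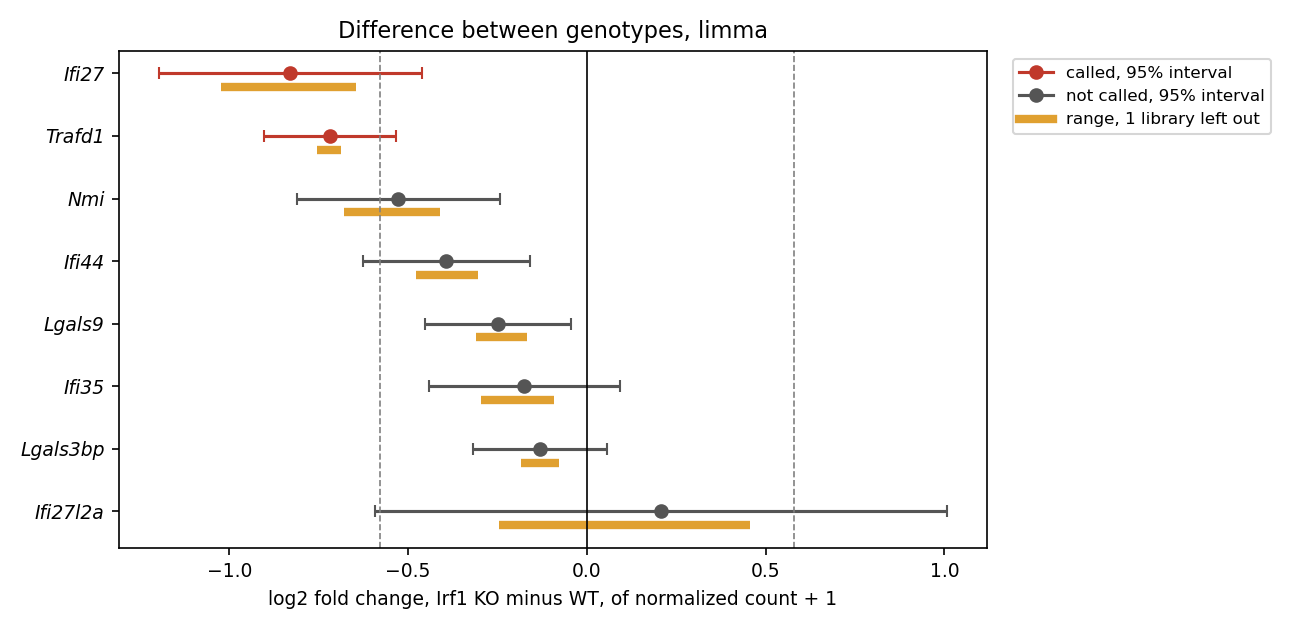
Log2 fold changes of the 8 genes, *Irf1* KO minus WT, from limma, with 95% intervals (3 mice per genotype) and, below each, the range over the 6 fits that left out 1 library. Dashed lines mark the fold threshold of 0.58 in either direction, and *Ifi27l2a* was the only gene whose range crossed 0.

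*Irf1* KO replicate 3 was the highest KO library for 7 of the 8 genes, with *Trafd1*, for which it was the lowest, as the exception, while it was the highest KO library for 39.6% of all tested genes. Among WT libraries, replicate 2 was the highest for 5 of the 8 genes, against 26.6% of all tested genes, and replicate 4 the lowest for 5 of the 8, against 40.3%. KO replicate 3 was also the KO library with the most reads on genes, and the part of depth in its values was not tested.

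Per kilobase of the longest transcript, the 8 genes spanned a wide range of abundance in WT HSCs. *Lgals9* led with 22322 ± 2291 normalized counts per kilobase, followed by *Lgals3bp* with 11820.0 ± 289 (SD, *n* = 3), above 99.6% and 98.8% of the tested genes with a known transcript length. After a wide step came *Ifi27* (3841 ± 783 per kilobase) and *Ifi35* (2973 ± 423), whose levels overlapped within 1 SD. *Trafd1* followed with 2116 ± 42.9 per kilobase, then *Nmi* with 1741 ± 107 and *Ifi44* with 1501 ± 168, and the latter pair overlapped within 1 SD. *Ifi27l2a* was the lowest at 242 ± 108 per kilobase, above 43.7% of the tested genes. In *Irf1* KO HSCs the order changed at 1 place, with *Ifi35* (2632 ± 376 per kilobase) above *Ifi27* (2181 ± 573), again overlapping within 1 SD. The step between the galectin genes depended on the length used, since with the mean transcript length *Lgals3bp* (26552 ± 648 per kilobase) was no longer below *Lgals9* (25408 ± 2607), and *Trafd1* (4181 ± 84.9) moved above *Ifi35* (3400 ± 483).

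The genes that most resembled the called ones over the 6 libraries were found by the root mean square difference of log2 values after each gene's own WT mean was subtracted. Similar fold changes of the genes found, in these same libraries, follow from the search and are not a separate result. For *Trafd1* they were *Ifit2* (difference 0.038), which encodes an interferon-induced RNA-binding protein, *Raver2* (0.067), which encodes a ribonucleoprotein, and *Scly* (0.083), which encodes selenocysteine lyase. Their log2 fold changes were −0.69, −0.76, and −0.75, and all 3 were called. For *Ifi27* they were the palmitoyltransferase gene *Zdhhc14* (0.12) and the inflammasome sensor gene *Nlrp1a* (0.18), both called with log2 fold changes of −0.88, and the circadian factor gene *Npas2* (0.20), with −0.92, which was not called (adjusted *P* = 0.101, limma). The nearest gene was thus closer for *Trafd1*, whose replicates were tight, than for *Ifi27*.

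Other genes around these proteins were taken from fixed lists. Many interferon-responsive genes in them are also in the study's own lists, so that, as for *Trafd1* and *Ifi27*, their direction is not independent evidence. Of 14 genes for interferon receptors and the JAK-STAT core, 1 was called higher, with a median log2 fold change of 0.14 over the list. It was *Socs3*, a feedback inhibitor of JAK kinases (718 ± 163 to 1609 ± 100.3 normalized counts, SD, *n* = 3 each, log2 fold change 1.19, adjusted *P* = 7.37e-04, limma), and it was no longer called without the intensity trend (adjusted *P* = 0.120). The abundant *Jak1* (0.17), *Stat3* (0.24), and *Irf9* (0.30) were not called, although for each of them all KO libraries were above all WT libraries. At an unadjusted *P* under 0.05 (limma), 6 of the 14 genes were higher and 1 was lower. All KO libraries were above all WT libraries for 7 of the 14 genes and below them for 3.

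Among 29 antiviral interferon-stimulated genes tested, 6 were called lower and 0 higher (0 also in edgeR, DESeq2, and at an unadjusted *P* under 0.05), with a median log2 fold change of −0.23. The 6 were *Ifit3* (−1.89), *Oas3* (−1.31), *Mx1* (−1.24), *Isg20* (−0.73), *Ifit2* (−0.69), and *Ddx60* (−0.69), so that the fall of *Trafd1* was of the size of the last 3. *Mx1* lost its call in 5 of the 6 fits without 1 library (adjusted *P* up to 0.130, limma), all but that without KO replicate 3. Over the 6 fits the log2 fold change of *Mx1* lay between −1.455 and −1.05. The abundant *Oasl2* (−0.43), *Dtx3l* (−0.42), and *Sp100* (−0.23) were not called. *Oasl2* (adjusted *P* = 0.0484, limma) and *Dtx3l* (0.0125) passed the adjusted *P* but not the fold threshold, and *Sp100* (0.194) passed neither. Of 25 interferon-gamma-inducible genes for antigen presentation and GTPases, 19 were called lower and 0 higher (0 also in edgeR, DESeq2, and at an unadjusted *P* under 0.05), with a median log2 fold change of −0.86, a larger fall than the −0.72 of *Trafd1*. They ranged from *Cd74* (−5.45), the invariant chain of class II molecules, to the proteasome activator gene *Psme1* (−0.58), and also held *Iigp1*, *Cxcl10*, *Gbp4*, *Ciita*, *Gbp3*, *Gbp2*, *Ifi47*, *Tgtp2*, *Psmb9*, *Psmb10*, *Igtp*, *Psmb8*, *Psme2*, *Irgm2*, *Tap1*, *B2m*, and *Nlrc5*. *Psme1*, *Irgm2*, *Tap1*, *Nlrc5*, and *Cxcl10* lost their calls in 2 or 3 of the 6 fits without 1 library. Over the 6 fits, log2 fold changes lay between −0.74 and −0.53 for *Psme1*, *Irgm2*, *Tap1*, and *Nlrc5*, and between −3.66 and −2.09 for *Cxcl10*. The abundant *Tap2* (−0.52), *Tapbp* (−0.45), and *Irgm1* (−0.27) were not called. Here too *Tap2* (adjusted *P* = 0.0457, limma) and *Tapbp* (0.0158) missed only the fold threshold, and *Irgm1* (0.171) missed both. Without the intensity trend, 0 of the antiviral genes and 4 of the interferon-gamma-inducible genes were called lower.

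The proteins that NMI and IFI35 bind were represented by 11 genes, with a median log2 fold change of 0.09. At an unadjusted *P* under 0.05 (limma), 3 of the 11 genes were higher and 1 was lower. All KO libraries were above all WT libraries for 4 of them and below for 1. *Mycn* (0.40, adjusted *P* = 0.0177, limma) passed the adjusted *P* but not the fold threshold, and *Myc* (0.07) was not called. Of 16 genes for TRAF proteins and Toll-like receptor adaptors, parts of the pathways that TRAFD1 dampens, 0 were called in either direction (0 in edgeR and DESeq2, and 0 lower and 4 higher at an unadjusted *P* under 0.05 in limma), and the abundant *Irak1*, *Traf7*, and *Myd88* had log2 fold changes of −0.04, −0.07, and 0.04.

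Among 6 other galectin genes tested, *Lgals1* was called higher, opposite in sign to *Lgals9*, with 1014, 889, and 1077 normalized counts in *Irf1* KO replicates 2, 3, and 4, against 704, 417, and 676 in WT. All its KO libraries were above all WT libraries (log2 fold change 0.76, limma adjusted *P* = 0.0417, SE 0.19). *Lgals1* was no longer called without KO replicate 2 (adjusted *P* = 0.144), 3 (0.0594), or 4 (0.162), without WT replicate 3 (0.133, limma), and without the intensity trend (0.317). Over the 6 fits that left out 1 library, the log2 fold change of *Lgals1* lay between 0.52 and 0.90. *Lgals8* (−0.22), *Lgalsl* (0.01), and *Lgals3* (0.46) were not called, and *Lgals2*, *Lgals7*, and *Grifin* were under the filter on low values. Of 7 partners of galectin-9 and of the galectin-3-binding protein, 1 was called higher, which was again *Lgals1*, and *P4hb* (−0.29), *Cd44* (−0.05), and *Itgb1* (−0.03), the most abundant, were not called.

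Markers of HSCs and of other cells were read in the same libraries. All 10 HSC markers were counted, with *Kit* the most abundant, and their summed level was between 189345 and 226179 normalized counts. *Fgd5* alone of them was called, higher in *Irf1* KO HSCs (0.83, adjusted *P* = 9.13e-05, limma), while *Procr* (0.52, adjusted *P* = 0.0112) and *Ly6a*, which encodes the sort marker Sca1 (−0.43, adjusted *P* = 0.0245, limma), passed the adjusted *P* but not the fold threshold. The 5 megakaryocyte markers summed to 40363, 24765, and 35754 normalized counts in KO replicates 2, 3, and 4, and 47319, 60305, and 45164 in WT, so that, as for *Trafd1* and *Ifi27*, all KO libraries were below all WT libraries. *Itga2b* was the most abundant of this list, none of its markers was at 0, and *Pf4* (−1.11) and *Gp1bb* (−0.90) were called lower. KO replicate 3 was the lowest for this sum but the highest KO library for most of the 8 genes. The 6 endothelial and stromal markers summed to 3169, 3348, and 3444 in KO replicates 2, 3, and 4, and 2087, 2251, and 2473 in WT. All KO libraries were thus above all WT libraries for this sum. Most of it was *Emcn* (mean 1398 in WT and 2084 in KO, adjusted *P* = 0.0101, limma, but under the fold threshold). None of the 6 was at 0 in all libraries, and 0 were called in either direction.

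WT replicate 4 stood apart in neutrophil and granulocyte markers, whose 6 genes summed to 7163 normalized counts in it and to between 341 and 835 in the other 5 libraries, with *Ngp* the most abundant and none at 0 in all libraries. Without this library *Trafd1* (−0.70, adjusted *P* = 0.00146) and *Ifi27* (−0.87, adjusted *P* = 0.0208, limma) were both still called, and 265 genes in all were called lower. The sums of the 6 B cell markers (2667 to 3103, mostly *Cd79b*), the 6 T and NK cell markers (171 to 394, mostly *Cd4*), and the 7 monocyte, macrophage, and dendritic cell markers (24232 to 32563, mostly *Lyz2*) overlapped between genotypes. Of the 5 erythroid markers, *Epor* was the most abundant, *Klf1* was called lower (−0.72, adjusted *P* = 0.0361, limma), and the sum was 2924, 2217, and 2731 in KO replicates 2, 3, and 4, against 3705, 3828, and 2995 in WT, all KO libraries being below all WT libraries. *Hba-a1* and *Hbb-bs*, globin genes with near-identical copies, were listed at 0 in all 6 libraries. The part of the megakaryocyte, erythroid, and endothelial and stromal markers in the differences of the 8 genes was not tested.

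By position, *Ifi35*, *Lgals9*, and *Lgals3bp* lie on chromosome 11 like *Irf1*, with 757, 417, and 996 tested genes between each of them and *Irf1* in RefSeq gene order, and none of the 3 was called. *Trafd1* is on chromosome 5, *Ifi27* and *Ifi27l2a* on chromosome 12, *Nmi* on chromosome 2, and *Ifi44* on chromosome 3.

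Promoter windows of 300 bases, from 250 before to 50 after the annotated start, were given in RefSeq (GRCm38.p6) for 6 of the 8 genes, with 2 starts for *Trafd1*. *Ifi27* and *Ifi27l2a* had no entry. Each window was searched for GAAANNGAA on either strand (TTCNNTTTC when read on the other), the core of the interferon-stimulated response element to which IRF proteins bind, and for TTCNNNGAA, the gamma-activated site, which reads the same on both strands. The first was in 8.56% and the second in 8.30% of all 32851 windows. *Lgals9* held 2 matches of the first motif, at bases 197 and 267 of its window, and *Ifi44* held 1, at base 248, all in the reverse orientation. *Ifi35* held 1 match of the second motif, at base 258, and the windows of *Nmi*, *Lgals3bp*, and *Trafd1* held neither. None of the 3 genes with a match was called. The windows of *Lgals9* and *Ifi44* are printed because they hold the first motif, that of *Ifi35* because it holds the second, and 1 of *Trafd1* because it is the called gene with a window. They read 5′ to 3′ along the strand of the gene, and capitals mark the matches. Positions are chr11:78984875-78985174 on the minus strand, chr3:151749861-151750160 on the minus strand, chr11:101448162-101448461 on the plus strand, and chr5:121385360-121385659 on the minus strand.
Lgals9: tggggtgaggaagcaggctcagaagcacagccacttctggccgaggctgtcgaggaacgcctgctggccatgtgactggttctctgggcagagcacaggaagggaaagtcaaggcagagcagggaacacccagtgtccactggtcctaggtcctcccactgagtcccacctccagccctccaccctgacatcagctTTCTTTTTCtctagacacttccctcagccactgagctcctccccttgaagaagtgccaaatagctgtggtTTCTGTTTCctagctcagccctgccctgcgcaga
Ifi44: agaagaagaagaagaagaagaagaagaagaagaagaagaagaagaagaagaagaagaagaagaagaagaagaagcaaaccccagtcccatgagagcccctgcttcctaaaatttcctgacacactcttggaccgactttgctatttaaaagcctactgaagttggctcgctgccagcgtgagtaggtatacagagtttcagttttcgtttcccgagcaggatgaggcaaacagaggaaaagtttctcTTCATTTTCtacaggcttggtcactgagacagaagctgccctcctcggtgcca
Ifi35: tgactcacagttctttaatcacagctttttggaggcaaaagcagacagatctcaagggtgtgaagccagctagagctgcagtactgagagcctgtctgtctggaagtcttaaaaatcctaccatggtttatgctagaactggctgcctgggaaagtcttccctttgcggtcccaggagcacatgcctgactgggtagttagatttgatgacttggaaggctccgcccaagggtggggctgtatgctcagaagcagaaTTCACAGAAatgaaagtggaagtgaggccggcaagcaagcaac
Trafd1: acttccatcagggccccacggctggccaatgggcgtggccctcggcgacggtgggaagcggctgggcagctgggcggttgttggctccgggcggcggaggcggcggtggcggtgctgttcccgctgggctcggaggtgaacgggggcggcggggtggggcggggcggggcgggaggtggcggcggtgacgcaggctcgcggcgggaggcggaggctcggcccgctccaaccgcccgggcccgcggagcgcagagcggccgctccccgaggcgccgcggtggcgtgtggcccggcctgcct
A match describes the letters of the window and not binding, and where IRF1 binds was not analysed here.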

How the data were processed

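Bulk RNA-seq libraries were made with the SMART-Seq v4 and Nextera XT kits. Reads were trimmed with Trim Galore and aligned with HISAT2 to mm39 per the submitters' processing notes, and counted with Htseq-count on Galaxy. Versions of these tools, annotation, and strandedness are not given in the sources used here. The authors deposited a signal, namely read counts scaled by 1 DESeq2 size factor for each library. Each value divided by the smallest value of its library gave a whole number (100% within 0.01), so reads were recovered.

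Samples were grouped by their labels. limma 3.58.1 in R 4.3.3 (lmFit, then eBayes with trend) was fitted to log2(normalized count + 1) of genes whose mean was 10 or more, with Benjamini-Hochberg adjustment over 17404 genes. Count models were alternatives, run on recovered reads with edgeR 4.0.16, which called 161 genes lower and 162 higher, and DESeq2 1.42.0, which called 209 and 295. The other alternatives covered the pseudocount, filter, trend, quantile normalization, replicate block, fold threshold, each library left out, and transcript length. The smallest *P* of the exact two-sided permutation test for 3 against 3 is 0.1.

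Named genes are the 8 genes, *Irf1*, in each list the called genes and up to 3 abundant others, the 3 genes nearest in pattern to each called member, and in each marker list the most abundant gene and those at 0. A gene among these is left out and not reported here. *Ifi27l2b*, *Ifi44l*, and other list genes under the filter complete their lists. The marker genes *Pf4*, *Gp1bb*, *Klf1*, *Fgd5*, *Procr*, and *Ly6a* were named after their values were seen. The members and lists were chosen with earlier results of these data known. *Ifi27l1* is a synonym of *Ifi27*, *Rigi* was tested under its older symbol *Ddx58*, and *Pdcd1* was not tested. Transcript lengths came from GENCODE vM1, matched by symbol for 8 of 8 members and 88.8% of the tested genes, and promoters and gene order from RefSeq (GRCm38.p6). *Xist* and Y-linked genes are not reported. Figures were drawn with matplotlib 3.10.9.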

Additional observations from a re-analysis of the deposited data

How the results depend on the processing

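Over 37 results and 472 alternative values, 424 kept their direction and their side of the threshold, or moved by less than 1 SD or 1.5 times. Without the intensity trend, limma called 33 genes lower and 7 higher, 0 of the 8 members lower, 0 genes higher in the JAK-STAT list, 0 lower in the antiviral list, 4 lower in the interferon-gamma list, and 0 higher in both galectin lists. There the log2 fold changes of *Ifi27* (−0.83) and *Trafd1* (−0.72) were as in the fit with the trend, with SE of 0.25 against 0.17 for *Ifi27* and 0.083 against 0.086 for *Trafd1*. With the adjusted *P* alone, 260 genes were lower and 301 higher, *Nmi* (−0.53) was added, 10 antiviral genes were lower, and 1 gene each was higher among NMI and IFI35 partners (*Mycn*) and TRAF and adaptor genes (*Traf1*). DESeq2 on recovered reads called 295 genes higher. With 1 library left out, between 105 (without WT replicate 3) and 265 (without WT replicate 4) genes were lower and between 83 (without KO replicate 4) and 304 (without WT replicate 4) higher, and between 1 and 3 members were lower. Log2 fold changes then lay between −1.02 and −0.65 for *Ifi27* and between −0.68 and −0.41 for *Nmi*, and between −0.25 and 0.46 for *Ifi27l2a*, whose sign turned without WT replicate 3 (−0.25). Between 0 and 1 genes were called higher in each galectin list and among TRAF and adaptor genes (*Irak2*, without KO replicate 3). With the mean transcript length, WT levels per kilobase were 4715 (*Ifi27*), 3400 (*Ifi35*), 2359 (*Nmi*), 4181 (*Trafd1*), 25408 (*Lgals9*), and 26552 (*Lgals3bp*). Apart from the lengths, the cause was not tested. With the replicate block, 196 genes were called lower and 219 higher and 2 members lower. The correlations of deviations between same-numbered libraries were −0.094, 0.25, and 0.15, and not every library correlated best with its own number. With 3 libraries per genotype these values cannot settle whether the numbers pair the mice, which the labels do not say. The main fit did not pair them. At 48 to 176 reads per library, the depth of *Ifi27l2a* limits what can be seen of it.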
